A study of Mus musculus with 9 samples.

Results

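The genes described here are the mitotic kinases and spindle checkpoint genes Aurka, Plk1, Tpx2, Ttk, Bub1, Bub1b, Mad2l1, Cdc20, Ndc80 and Nuf2, followed in mouse heart muscle after birth. They were chosen by name, with earlier results of these data known. Each of the 10 has exactly 1 probe set with a single gene symbol on the array, and all 10 were among the 19938 genes tested. Heart tissue of C57BL/6 mice, an inbred laboratory strain, with no allele or treatment named in the labels, was taken at 24 hours, 7 days and 10 weeks after birth. Its total RNA was hybridised to 9 Affymetrix Mouse Gene 1.0 ST arrays, 3 for each age. Each value is a log2 signal, so a difference of 1 is a 2-fold change. The labels do not say whether the replicates are separate animals or pools, so p-values measure the spread between these samples, which may be technical.

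When a cell divides, Aurora kinase A (Aurka) and polo-like kinase (Plk1) mature the centrosomes and build the spindle, and Tpx2 activates Aurora A on spindle microtubules. Ndc80 and Nuf2 pair in the complex that ties kinetochores, the protein plates on each centromere, to microtubules. At kinetochores still without microtubules the kinase Ttk recruits Bub1, the related protein Bub1b (BubR1) and Mad2l1 (Mad2), and a complex of BubR1, Bub3, Mad2 and Cdc20 then holds back the anaphase-promoting complex (APC/C) until every chromosome is attached. Transcripts of these genes are low in resting cells and rise towards mitosis. In the mouse heart most muscle cells leave the cell cycle in the days after birth, many after a last division of the nucleus without division of the cell, while fibroblasts and endothelial cells go on dividing for longer.

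All 10 genes were lower at 10 weeks than at either younger age, with log2 differences from 24 hours of -1.21 (Cdc20) to -3.89 (Bub1). Between 24 hours and 7 days the differences were small: the median over the 10 was -0.15, and Plk1 and Bub1 alone passed the test. The mean over the 10 genes per array lay between 6.96 and 7.33 at 24 hours, between 6.83 and 6.95 at 7 days and between 4.52 and 4.76 at 10 weeks. The 10-week arrays thus stood apart, and the ranges of the younger ages met near their edge, with 6.95 the highest at 7 days and 6.96 the lowest at 24 hours. In RNA from whole tissue, fewer dividing cells and less RNA per dividing cell cannot be told apart.

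**Figure D1:**
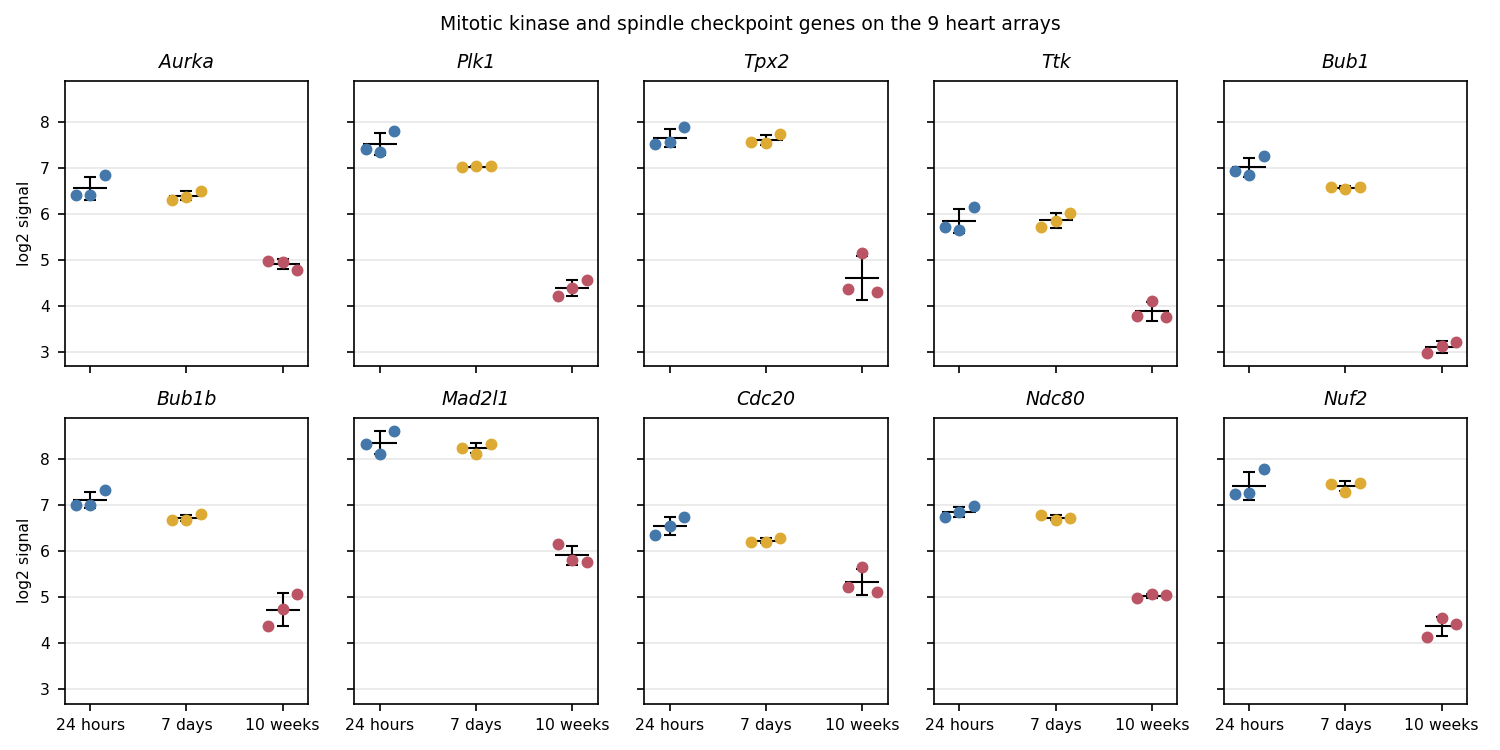
Log2 signal (vertical axis) of each of the 10 genes on the 9 arrays at 24 hours, 7 days and 10 weeks, with 1 point per array and a black bar for the mean ± SD of 3 arrays. In all 10 panels the 10-week points lie below every younger point, while the 24-hour and 7-day points overlap in 6 panels.

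Promoters are shown because many mitotic genes share a pair of elements near their start. These are the cell cycle genes homology region (CHR, core TTTGAA or TTTAAA), bound by the MuvB complexes, and the CCAAT box, bound by NF-Y. RefSeq promoter windows on GRCm38.p6, from 250 bases before to 50 after the annotated start, were matched by symbol for 9 of the 10 genes, all but Tpx2. Letters were searched on both strands (TTTAAA is its own reverse complement), and no matches overlapped each other in these windows. Shown here are Bub1 (minus strand, chr2:127831810-127832109), which fell most; Plk1 (plus strand, chr7:122159185-122159484), with the most CHR matches; Aurka (minus strand, chr2:172370521-172370820); Cdc20 (minus strand, chr4:118437294-118437593), which fell least; and Nuf2 (minus strand, chr1:169531415-169531714), with no match. They run 5′ to 3′ along the gene and capitals mark the matches.
Bub1: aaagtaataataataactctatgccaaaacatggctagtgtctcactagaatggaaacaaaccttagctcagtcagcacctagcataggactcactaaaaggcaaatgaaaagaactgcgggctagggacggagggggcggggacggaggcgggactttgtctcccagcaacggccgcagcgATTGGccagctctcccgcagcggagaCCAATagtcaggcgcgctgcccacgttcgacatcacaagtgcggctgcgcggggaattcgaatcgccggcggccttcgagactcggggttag
Plk1: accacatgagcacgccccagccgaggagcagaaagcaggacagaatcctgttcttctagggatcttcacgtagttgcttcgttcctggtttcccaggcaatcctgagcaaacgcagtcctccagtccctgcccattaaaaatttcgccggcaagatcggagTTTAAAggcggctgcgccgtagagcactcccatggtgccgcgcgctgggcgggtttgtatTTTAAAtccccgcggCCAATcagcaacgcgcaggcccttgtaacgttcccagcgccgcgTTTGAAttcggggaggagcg
Aurka: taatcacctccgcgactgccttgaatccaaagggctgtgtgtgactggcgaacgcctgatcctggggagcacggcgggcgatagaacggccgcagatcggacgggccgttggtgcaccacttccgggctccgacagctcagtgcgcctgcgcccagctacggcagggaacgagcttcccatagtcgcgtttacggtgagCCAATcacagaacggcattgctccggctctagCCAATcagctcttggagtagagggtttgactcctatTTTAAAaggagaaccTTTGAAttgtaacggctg
Cdc20: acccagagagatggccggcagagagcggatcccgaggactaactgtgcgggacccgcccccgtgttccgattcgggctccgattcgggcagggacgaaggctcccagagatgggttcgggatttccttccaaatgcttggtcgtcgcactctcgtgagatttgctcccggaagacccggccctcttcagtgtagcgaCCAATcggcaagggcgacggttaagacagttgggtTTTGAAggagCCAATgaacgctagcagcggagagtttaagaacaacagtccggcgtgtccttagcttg
Nuf2: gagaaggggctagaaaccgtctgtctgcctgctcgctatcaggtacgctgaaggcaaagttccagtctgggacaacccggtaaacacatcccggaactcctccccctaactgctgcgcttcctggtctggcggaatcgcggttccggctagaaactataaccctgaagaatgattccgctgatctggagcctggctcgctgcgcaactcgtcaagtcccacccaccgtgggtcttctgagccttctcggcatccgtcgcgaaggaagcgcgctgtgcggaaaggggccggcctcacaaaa

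TTTGAA was present in 6 of the 9 windows, against 17.9% of all 32851 windows of the same length, and TTTAAA in 3 of the 9, against 13.2%. CCAAT was present in 6 of the 9, against 37.4% of all windows. CCAAT together with either CHR core was found in 5 of the 9, against 10.7%. In Cdc20 the core lies at bases -18 to -13, between CCAAT boxes at -53 to -49 and -8 to -4. In Aurka both cores lie after the start, at bases 18 to 23 and 33 to 38, and the CCAAT boxes before it, at -51 to -47 and -19 to -15. Bub1 has CCAAT on each strand and neither core. The Mad2l1 and Nuf2 windows hold none of these letters. A link between the letters and the differences between ages was not tested. The E2F letters TTTGGCGC and TTTCGCGC were in none of the 9 windows, against 0.514% and 0.323% of all. A match describes letters and was not tested as a binding site, and its absence speaks only of these letters in this window.

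**Figure D2:**
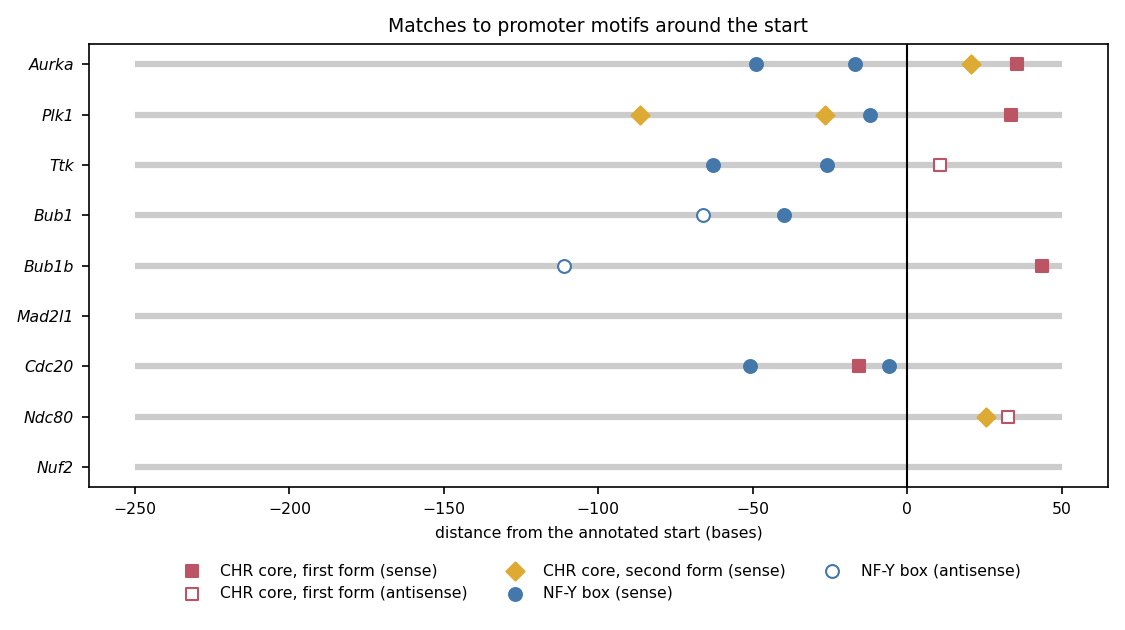
Positions of CHR cores (squares and diamonds) and NF-Y boxes (circles) from 250 bases before to 50 bases after the annotated start (horizontal axis, bases) in the 9 promoter windows; open symbols are antisense matches. CCAAT boxes lie before the start in Aurka, Plk1, Ttk, Bub1, Bub1b and Cdc20, and Mad2l1 and Nuf2 hold no match.

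The comparison of 10 weeks with 24 hours asks how far these transcripts differ between the adult and the newborn heart. Of the 10 genes 10 were lower by limma's test at an adjusted p under 0.05, against 20.6% of all tested genes that were lower by the same rule, and each was at least 2-fold lower, against 3.39%. In all 10 the groups did not overlap, against 23.6% of all genes lower without overlap. The median difference was -2.41, where the median over all tested genes was 0.04.

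Among the spindle kinases, Aurka (probe set 10490104) measured 6.40, 6.42 and 6.85 at 24 hours, 6.31, 6.36 and 6.51 at 7 days and 4.98, 4.97 and 4.79 at 10 weeks. Its 10-week arrays lay at least a full log2 unit below every younger array, and the younger ages overlapped. The difference between 10 weeks and 24 hours was -1.65 ± 0.12 (SE; 95% interval -1.91 to -1.39; limma's test, adjusted p = 1.49e-06). Plk1 (probe set 10557156), which acts from mitotic entry to exit, measured 7.40, 7.35 and 7.80 at 24 hours, 7.01, 7.03 and 7.03 at 7 days and 4.23, 4.38 and 4.56 at 10 weeks. Here the 3 ages did not overlap at all. Plk1 was 8.72-fold lower at 10 weeks than at 24 hours (difference -3.12 ± 0.12, adjusted p = 1.90e-08). Tpx2 (probe set 10477187), the activator of Aurora A, measured 7.51, 7.56 and 7.88 at 24 hours, 7.55, 7.53 and 7.73 at 7 days and 4.37, 5.15 and 4.30 at 10 weeks. Its 10-week SD of 0.47 was the largest of the 10 genes at any age, from replicate 2, and its difference of -3.04 ± 0.20 from 24 hours had the widest interval, -3.48 to -2.61.

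Among the checkpoint kinases, Bub1 (probe set 10487480) fell most. It measured 6.93, 6.85 and 7.24 at 24 hours, 6.59, 6.54 and 6.57 at 7 days and 2.98, 3.14 and 3.23 at 10 weeks, with no overlap between any ages. At 10 weeks it was 14.8-fold lower than at 24 hours (difference -3.89 ± 0.10, interval -4.12 to -3.66, adjusted p = 3.61e-09), the difference 13th from the lowest among all 19938 genes. Bub1b (probe set 10474769), a relative of Bub1 that binds Cdc20 in the checkpoint complex, measured 7.01, 7.00 and 7.32 at 24 hours, 6.68, 6.68 and 6.80 at 7 days and 4.37, 4.74 and 5.08 at 10 weeks. Its 10-week arrays spread over a wider range than its younger ones, and its difference of -2.38 ± 0.15 was smaller in size than that of Bub1, with intervals that did not overlap. Ttk (probe set 10587508), the kinase that starts the signal, measured 5.72, 5.66 and 6.14 at 24 hours, 5.71, 5.84 and 6.02 at 7 days and 3.78, 4.12 and 3.76 at 10 weeks. The younger ages overlapped throughout, and the adult level was 3.88-fold lower than the newborn one (difference -1.96 ± 0.14, adjusted p = 1.72e-06).

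Mad2l1 (probe set 10538832), whose protein changes fold at the kinetochore to capture Cdc20, measured 8.33, 8.11 and 8.61 at 24 hours, 8.24, 8.11 and 8.33 at 7 days and 6.15, 5.81 and 5.76 at 10 weeks. It was 5.44-fold lower at 10 weeks than at 24 hours (difference -2.44 ± 0.13, adjusted p = 2.08e-07). Cdc20 (probe set 10515744), the checkpoint's target and the activator of the APC/C, measured 6.36, 6.54 and 6.74 at 24 hours, 6.20, 6.20 and 6.28 at 7 days and 5.23, 5.65 and 5.12 at 10 weeks. The ages did not overlap, but the steps were small: its difference of -1.21 ± 0.13 from 24 hours (interval -1.51 to -0.91, adjusted p = 3.69e-05) was the smallest of the 10 in size. The intervals of Cdc20 and Aurka overlapped, and that of Cdc20 lay apart from those of the other 8 genes.

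Ndc80 (probe set 10452709) measured 6.75, 6.84 and 6.97 at 24 hours, 6.78, 6.68 and 6.72 at 7 days and 4.99, 5.07 and 5.04 at 10 weeks, with SDs of 0.04 to 0.11. Its partner Nuf2 (probe set 10359890) measured 7.23, 7.25 and 7.77 at 24 hours, 7.46, 7.28 and 7.48 at 7 days and 4.15, 4.55 and 4.42 at 10 weeks. In both genes the 24-hour and 7-day arrays overlapped and the 10-week arrays lay apart. Against 24 hours Nuf2 was 8.26-fold lower at 10 weeks (difference -3.05 ± 0.15) and Ndc80 3.53-fold lower (difference -1.82 ± 0.07).

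The size of the fall was compared within arrays for 3 pairs of working partners. Nuf2 minus Ndc80 was -0.66 ± 0.17 at 10 weeks and 0.56 ± 0.21 at 24 hours (SD, n = 3 arrays each), a change of -1.23. Bub1 minus Bub1b changed by -1.51 and Tpx2 minus Aurka by -1.40 between the same ages. In each pair the groups did not overlap, but 3 arrays against 3 cannot go below p = 0.10 in a two-sided exact permutation test, the value found for all 3 (0.129 after Benjamini-Hochberg adjustment over 9 such tests). Which signals lie near background is unknown, since no detection calls come with the values, and a difference that ends in a dim adult signal may be understated.

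**Figure D3:**
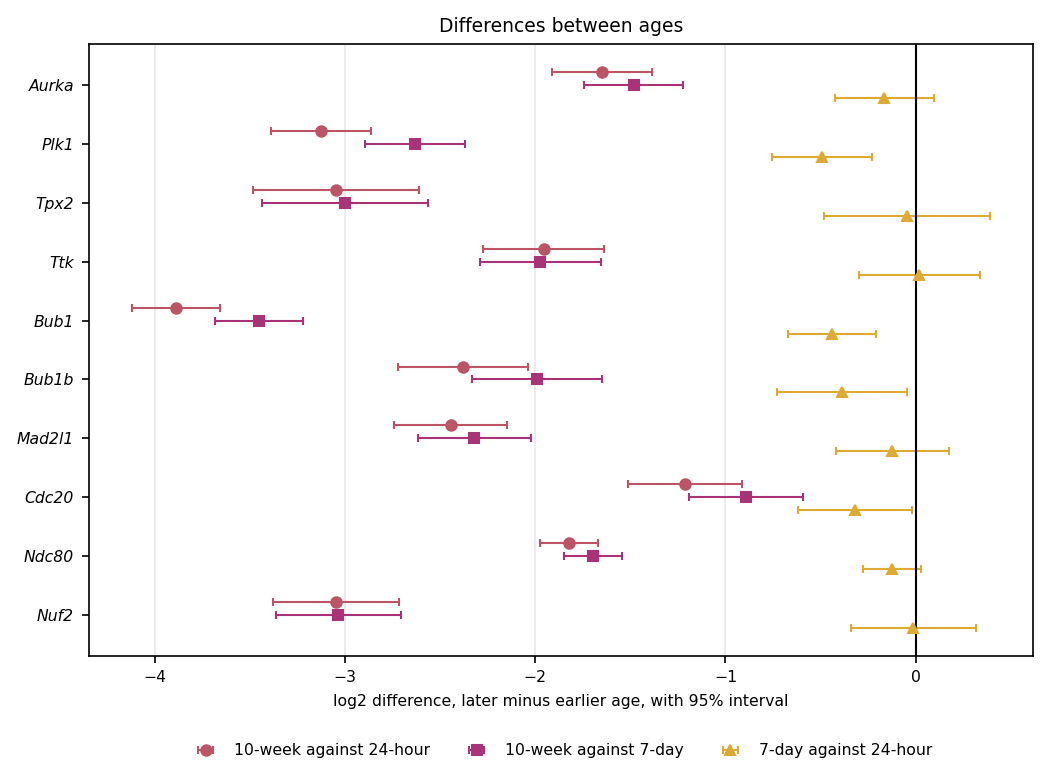
Log2 difference between ages (horizontal axis, later minus earlier) with its 95% interval for each gene and each of 3 comparisons. Differences to 10 weeks lie between -3.89 and -0.89, and those of 7 days against 24 hours between -0.49 and 0.02.

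The comparison of 10 weeks with 7 days asks how much of this change followed the first week. Again 10 of the 10 genes were lower, against 18.9% of all tested genes, 9 by at least 2-fold, against 2.98%, and in all 10 the groups did not overlap, against 21.5%. After centring of the arrays on their medians, the calls over all genes were 3307 lower and 5247 higher at 10 weeks, in place of 3777 and 3388, and the 10 genes were lower under both scalings. The median over the 10 genes was -2.16, where that over all tested genes was 0.04. Bub1 was lowest, 10.9-fold lower at 10 weeks (difference -3.45 ± 0.10, adjusted p = 1.28e-08), followed by Nuf2 (-3.03 ± 0.15), Tpx2 (-3.00 ± 0.20) and Plk1 (-2.63 ± 0.12). Mad2l1 was 4.99-fold lower, Bub1b 3.97-fold and Ttk 3.93-fold. Ndc80 differed by -1.69 and Aurka by -1.48. Cdc20 was 1.86-fold lower (difference -0.89 ± 0.13, adjusted p = 4.13e-04), the 1 gene of the 10 under 2-fold in this comparison. All 10 calls held when any 1 of the 9 arrays was left out.

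The first comparison in time, 7 days against 24 hours, asks what the first week itself did. Of the 10 genes 2 were lower, Plk1 and Bub1, and none higher, against 4.81% of all tested genes lower and 5.27% higher, which is 959 and 1050 genes (1247 and 888 with centred arrays; limma; 4 of the 10 at an unadjusted p under 0.05, against 21.2% of all genes in either direction). Plk1 averaged 7.02 ± 0.01 at 7 days and 7.52 ± 0.24 at 24 hours (SD, n = 3 each; difference -0.49 ± 0.12 SE, adjusted p = 0.0257). Its 7-day replicates 2 and 3 held the identical value, 7.02726, so the SD at that age may understate the spread. Bub1 averaged 6.57 ± 0.03 at 7 days and 7.01 ± 0.21 at 24 hours (difference -0.44 ± 0.10, adjusted p = 0.0239). Both calls were lost without 24-hour replicate 3 (differences -0.35 and -0.32, adjusted p = 0.0599 and 0.0596). They were lost also with all 35556 features tested (adjusted p = 0.0661 and 0.0600) and without 7-day replicate 1, 2 or 3. Without a 7-day replicate the differences stayed at -0.50 to -0.49 for Plk1 and -0.45 to -0.42 for Bub1. The call of Bub1 was lost also without 24-hour replicate 1 (adjusted p = 0.0506).

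Bub1b (-0.39 ± 0.15, adjusted p = 0.169) and Cdc20 (-0.32 ± 0.13, adjusted p = 0.200) did not pass, although their 7-day arrays lay below their 24-hour arrays; with only the 6 arrays compared Bub1b did pass (adjusted p = 0.0435). Groups did not overlap in 4 of the 10 genes, against 14.5% of all tested genes lower without overlap. The other 6 genes differed by -0.16 (Aurka) to 0.02 (Ttk). Their 95% intervals were -0.43 to 0.10 for Aurka, -0.42 to 0.17 for Mad2l1, -0.28 to 0.03 for Ndc80, -0.48 to 0.39 for Tpx2, -0.34 to 0.32 for Nuf2 and -0.30 to 0.34 for Ttk. A fall of 1 log2 unit in the first week lies outside the interval of every one of the 10 genes.

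Whether the later step was larger than the first-week step was tested directly, as the 10-week minus 7-day difference less the 7-day minus 24-hour difference. It was below 0 in 9 of the 10 genes at an adjusted p under 0.05 and above 0 in none, against 10.7% and 8.12% of all tested genes, from -3.02 ± 0.26 for Nuf2 and -3.01 ± 0.18 for Bub1 to -1.32 ± 0.20 for Aurka (adjusted p = 0.00124). For Cdc20 it was -0.57 ± 0.23 (adjusted p = 0.128; -0.73 and adjusted p = 0.0163 without 10-week replicate 2). Centring turned the split over all genes to 1728 lower and 2349 higher, in place of 2140 and 1619, and the same 9 genes passed. The steps cover unequal spans of time, so this compares amounts and not rates. Of the whole difference between 24 hours and 10 weeks, the first week held 26.4% for Cdc20, 16.3% for Bub1b, 15.8% for Plk1, 11.3% for Bub1 and 9.99% for Aurka, and under 7% for the other 5. Without 24-hour replicate 3, an alternative chosen after the data were seen, the shares were 20.0% for Cdc20, 12.5% for Bub1b, 11.8% for Plk1, 8.54% for Bub1 and 1.25% for Aurka, and Mad2l1, Ttk, Nuf2 and Tpx2 had a first-week difference above 0. Without 7-day replicates 2 and 3, which leaves 1 array at that age, 6 genes passed and Aurka, Bub1b and Ttk did not (adjusted p = 0.105, 0.117 and 0.0506).

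**Figure D4:**
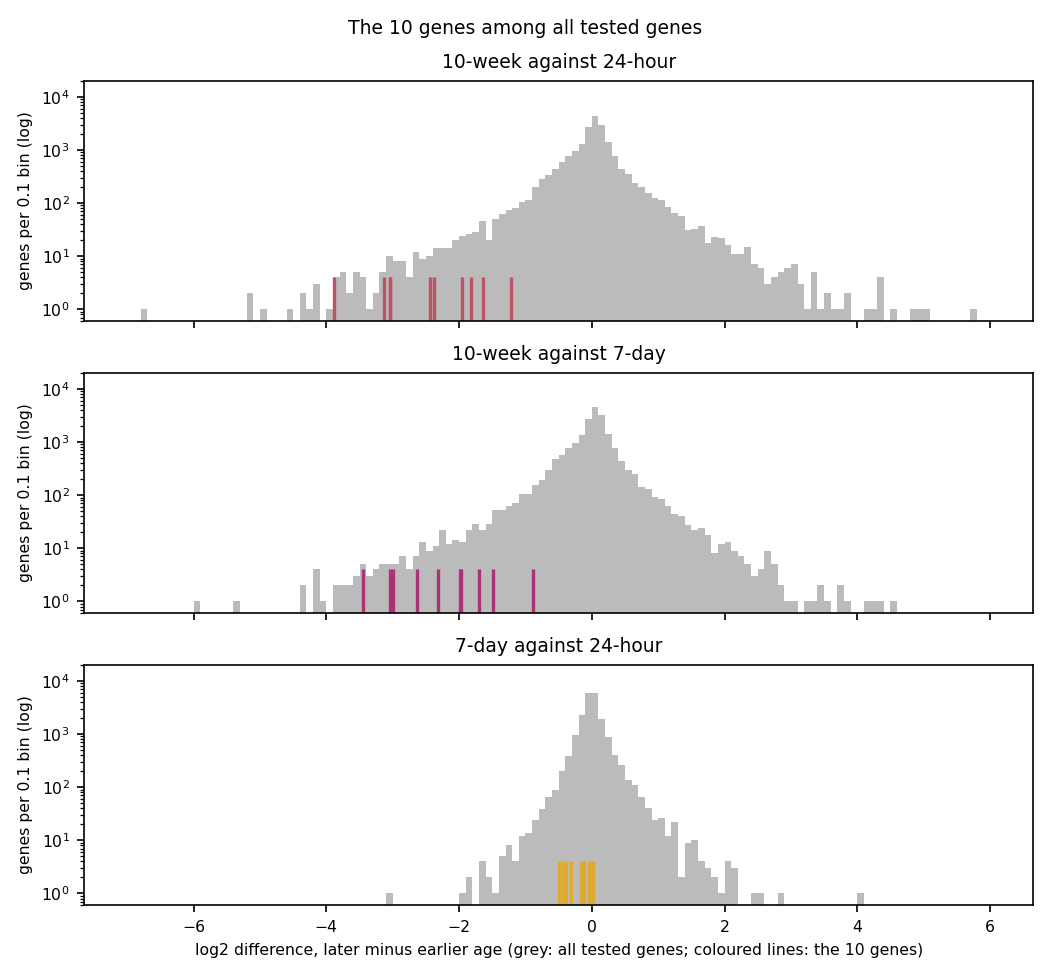
Number of genes per 0.1 bin of log2 difference (grey, log axis) for all 19938 tested genes in each comparison, with the 10 genes as coloured lines. The 10 lines lie between -3.89 and -1.21 for 10 weeks against 24 hours, in the lower tail. For 7 days against 24 hours they lie between -0.49 and 0.02. There Plk1, Bub1, Bub1b and Cdc20 lie below -0.28, the 5th percentile of all tested genes, and the other lines lie nearer the centre.

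Replicates of 1 age did not vary independently across these genes. On 24-hour replicate 3 all 10 genes were at their highest for that age, by 0.18 (Ndc80) to 0.53 (Nuf2) above the mean of replicates 1 and 2, with a mean excess of 0.37. Over all tested genes 30.7% were highest on that array, with a median excess of 0.00. Of 96 further mitotic genes, described next, 72 were highest there too. At 7 days, 7 of the 10 genes were highest on replicate 3, by less, with a mean excess of 0.11. At 10 weeks no array led for most genes: replicate 2 was highest for 5 (Tpx2 5.15, against 4.37 and 4.30 on replicates 1 and 3), replicate 3 for 3 and replicate 1 for 2. Deviations from the age means correlated over the 9 arrays with a median Pearson's r of 0.58 over the 45 pairs of genes (-0.17 to 0.98), which describes genes read from the same 9 samples. The excess of 24-hour replicate 3 bears on the first week: without that array the median difference between 7 days and 24 hours was -0.04, and Ttk (0.17), Nuf2 (0.16), Tpx2 (0.07) and Mad2l1 (0.01) were above 0.

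**Figure D5:**
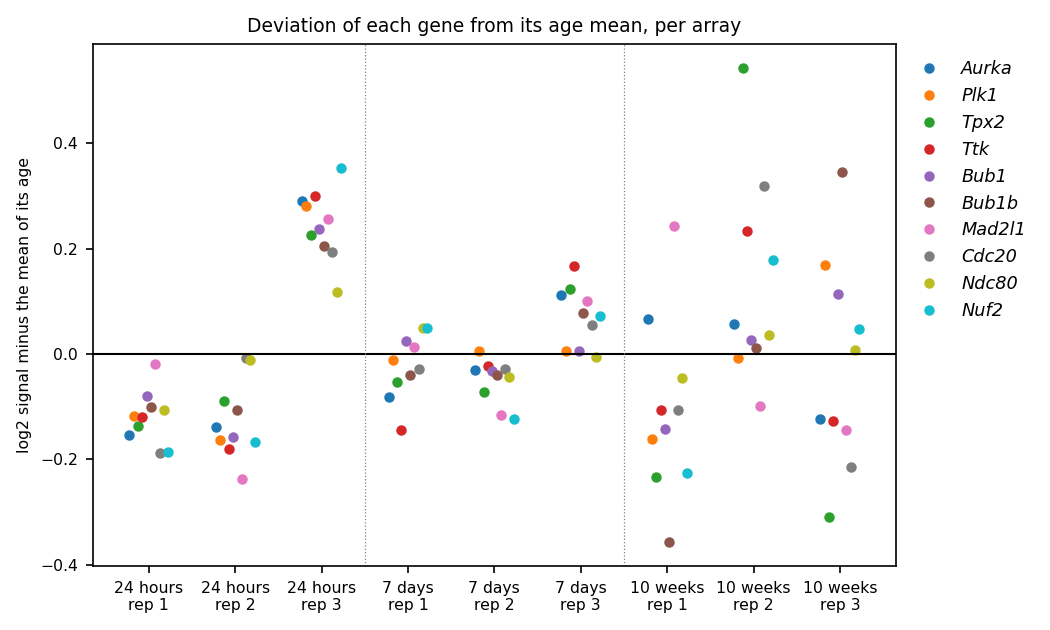
Log2 signal of each gene minus the mean of its age (vertical axis) on each of the 9 arrays (horizontal axis). All 10 points of 24-hour replicate 3 lie above 0, and the farthest point is that of Tpx2 on 10-week replicate 2.

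Other genes of the pathway were read from 5 lists written from general knowledge, with earlier results of these data known. The lists hold 97 genes, of which 96 had a probe set with a single symbol. Their counts are given as a description and not as an independent test. At 10 weeks 73 of the 96 were lower and 7 higher than at 24 hours (20.6% lower and 19.5% higher over all tested genes), with a median of -0.73. Against 7 days 72 were lower and 6 higher (18.9% and 17.0% over all genes), with a median of -0.59. At 7 days 8 were lower and 1 higher than at 24 hours (4.81% and 5.27%).

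Of 16 other mitotic kinases 11 were lower and 2 higher at 10 weeks than at 24 hours, and 3 did not pass. Those that fell included Cdk1, the kinase that drives entry into mitosis (-2.28), Nek2, a centrosome kinase (-2.01), Pbk (-1.99) and Mastl, which keeps the phosphatase opposing Cdk1 in check (-1.94). Nek7 rose by 0.47 and Nek9, an upstream activator of Nek6 and Nek7, by 0.47, and Aurkc (0.15), Plk3 (0.16) and Pkmyt1 (0.13) did not pass. Against 7 days the counts were the same, with Melk falling by 1.97. At 7 days 2 of the kinases were lower than at 24 hours: Wee1, which restrains Cdk1, differed by -0.44 (adjusted p = 0.00637) and Nek9 by -0.27.

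Of 13 other checkpoint and chromosomal passenger genes 10 were lower at 10 weeks than at 24 hours and none higher. Zwilch, a part of the complex that brings Mad1 and Mad2 to kinetochores, differed by -2.18, the passenger genes Cdca8 and Birc5 (survivin) by -1.67 and -1.65, and Trip13, the ATPase that opens Mad2, by -1.64. Mad2l1bp (0.30), Zw10 (-0.05) and Spdl1 (-0.21) did not pass. Of 27 other kinetochore genes 24 were lower and none higher, led by the motor gene Cenpe (-3.27), Knl1, the platform on which Bub1 and BubR1 gather (-3.17), Spc25, a partner of Ndc80 (-2.39), and Cenpn (-2.09). Mis12 (-0.13), Cenpo (-0.26) and Cenpq (-0.09) did not pass. At 7 days 0 of the 13 checkpoint genes differed from 24 hours by limma (2 at an unadjusted p under 0.05), and Zwilch (-0.30, adjusted p = 0.0937) and Trip13 (-0.30, adjusted p = 0.314) differed most. Of the kinetochore genes 3 were lower at 7 days, Cenpe (-0.41), Dsn1 (-0.32) and Zwint (-0.24).

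The APC/C list holds the machinery that the checkpoint restrains. Of its 20 genes 13 were lower and 3 higher at 10 weeks than at 24 hours, with a median of -0.33, and 2 fell at least 2-fold. These were Ube2c, the ubiquitin-conjugating enzyme of the APC/C, with a difference of -1.80, and Fbxo5, its inhibitor Emi1, with -1.67. Ube2s differed by -0.77. Pttg1, the securin that the APC/C destroys to free separase, went the other way. It measured 6.92, 6.77 and 6.75 at 24 hours, 7.10, 7.10 and 7.05 at 7 days and 8.08, 8.00 and 7.95 at 10 weeks, with no overlap between ages. Pttg1 rose in each comparison, by 1.20 ± 0.06 at 10 weeks against 24 hours (adjusted p = 1.63e-07), by 0.93 against 7 days and by 0.27 at 7 days against 24 hours (adjusted p = 0.0226). The subunit genes Anapc13 and Anapc16 rose by 0.17 and 0.19 at 10 weeks against 24 hours. At 7 days Anapc7 was the 1 gene of the list lower than at 24 hours (-0.21, adjusted p = 0.0488).

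Of 20 tested spindle partners of Aurka and Tpx2, 15 were lower and 2 higher at 10 weeks than at 24 hours. Hmmr, which helps place Tpx2 on the spindle, differed by -4.19, the spindle motor Kif11 by -3.77, Nusap1 by -2.68 and Dlgap5 by -2.57. Nedd1, which targets gamma-tubulin to the spindle, rose by 0.38 and Haus1, of the augmin complex, by 0.19, while Haus2 (-0.18), Haus5 (-0.19) and the gamma-tubulin gene Tubg1 (-0.17) did not pass. In the first week Tacc3, which Aurora A places on the spindle, differed by -0.38 (adjusted p = 0.00784) and Numa1 by -0.18. Tacc3 held the identical value, 6.37015, on all 3 arrays at 7 days. That tie adds no spread to its test, so its p-value may be too small.

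The 6 other genes whose values over the 9 arrays followed the mean of the 10 most closely were Tmpo, Stil, Kif11, Rrm2, Cdca3 and Anln, with Pearson's r of 0.998 to 0.999. These coefficients mostly reflect the gap between 10 weeks and the younger ages, and they are given as a description. The amplitudes differed: Tmpo averaged 7.06 ± 0.03 at 10 weeks and 8.34 ± 0.12 at 24 hours, and Anln 4.67 ± 0.35 at 10 weeks and 8.40 ± 0.24 at 24 hours (SD, n = 3 each). Among the 10 genes themselves r with their mean, which holds each gene's own values, ran from 0.958 for Cdc20 to 0.998 for Ndc80.

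Markers of the cell types in the tissue moved in several directions beside these genes. The mean log2 signal of 8 cardiomyocyte markers was 12.24 to 12.25 per array at 24 hours, 12.12 to 12.19 at 7 days and 12.17 to 12.19 at 10 weeks. None of the 8 passed between 10 weeks and 7 days with limma (2 at an unadjusted p under 0.05), where all 10 mitotic genes fell, but 4 were lower and 1 higher at 10 weeks than at 24 hours and 2 were lower at 7 days than at 24 hours. Of 8 fibroblast markers 6 were lower at 10 weeks than at 7 days (array means 8.84 to 9.08 at 10 weeks and 10.23 to 10.50 at 7 days). The collagen genes Col1a1 (-3.02) and Col3a1 (-2.90) fell most of the 6, while Dcn (0.03) and Pdgfra (-0.29) did not pass. Of 8 endothelial markers 5 were lower between the same ages (8.91 to 9.02 and 9.24 to 9.32). Against 24 hours 4 fibroblast markers were lower and 3 higher at 10 weeks (9.57 to 9.77 at 24 hours), and 4 endothelial ones lower and 2 higher (9.07 to 9.11). In the first week, in which 2 of the 10 mitotic genes were lower, 4 fibroblast, 3 endothelial and 7 macrophage markers were higher at 7 days than at 24 hours and none of these was lower. Of 6 tested erythroid markers 3 were lower at 10 weeks than at 7 days and 3 than at 24 hours (4.45 to 4.87 at 10 weeks and 5.40 to 5.50 at 7 days), and the heme synthesis gene Alas2 reached 7.12 on 10-week replicate 2 against 4.25 and 4.56 on the others of that age. Of 8 macrophage markers 7 were higher and 1 lower at 10 weeks than at 7 days (8.06 to 8.28 and 7.36 to 7.44), and 7 higher and none lower than at 24 hours (6.74 to 6.86). Of 8 smooth muscle and pericyte markers 1 was higher and 4 lower at 10 weeks than at 7 days, and 3 higher and 2 lower than at 24 hours. Of 7 tested thymocyte markers 1 was higher and none lower at 10 weeks than at 7 days (4.23 to 4.38 and 4.13 to 4.19), and 5 higher and none lower than at 24 hours (at most 4.08). Over all tested genes 17.0% and 19.5% were higher in these comparisons. The thymocyte means lie below 5.54, the median signal of all tested genes, and may be near background. The brown fat list averaged 5.83, 8.21 and 6.95 on the 7-day replicates and 5.65 to 6.20 on the other arrays. Myl7, the myosin light chain of the atria, measured 4.70, 7.52 and 8.43 at 10 weeks in ascending order, and 10.27 to 11.37 over the younger arrays. Eif2s3y, carried on the Y chromosome, measured 2.87 to 3.30 at 10 weeks and 6.06 to 7.70 at the younger ages. Xist measured 8.26 to 9.56 over all arrays. Each younger array thus showed both signals, as RNA pooled from both sexes would, though the labels name no pools. The sex of the mice therefore cannot be told apart from the step to 10 weeks. The part of any of these in the results above was not tested. Without 7-day replicates 2 and 3, those with most brown fat signal, which leaves 1 array at that age, all 10 genes were called lower at 10 weeks than at 7 days. In that fit the first-week calls of Plk1 and Bub1 and the calls of Aurka, Bub1b and Ttk for the later step less the first-week step were lost.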

How the data were processed

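The table deposited by the authors gives each array a log2 signal for every feature. The tool named is MAS5 5.0, per the submitters' processing notes. How probes were summarised and arrays normalized is not given in the sources used here. Some genes, among them Plk1, Bub1b, Mad2l1 and Tacc3, hold exactly the same value on more than 1 array. The origin of these ties is not given either. Values ran from 1.85 to 13.58, above 11.09, the natural log of the top 16-bit scanner value, so base 2 was taken. Array medians over all features lay within 0.05 and the values were used as they stand. The later centring used the medians of the tested genes. It moved the median difference between 10 weeks and 7 days from 0.04 to 0.10. The number of arrays limits the precision.

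Of 35556 features, 21789 carry a single platform symbol, which was updated by Entrez ID for 21698. Where a gene had more than 1 such feature (999 genes), the feature of highest mean stood for it, leaving 19938 genes.

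With limma 3.58.1 in R 4.3.3 a mean per age was fitted over all 9 arrays (6 residual degrees of freedom), variances were moderated with an intensity trend, and p-values were adjusted by Benjamini-Hochberg over all genes. Genes under 0.05 were called. The code was tested on simulated data. Partner pairs were compared by exact permutation. The same replicate numbers did not pair arrays (correlations of their deviations from -0.17 to 0.13).

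Members and lists were chosen with earlier results of these data known. Named were, per list and comparison, up to 4 genes with the largest difference among those called (the 2 largest where none was), those that did not pass or moved against the list where 5 or fewer, and the 6 genes most correlated with the members' mean. The alternatives were other variance settings, a low-value filter, centring, quantile normalization, other gene summaries, fewer arrays and a replicate block.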

Additional observations from a re-analysis of the deposited data

How the results depend on the processing

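All 10 genes were called lower at 10 weeks than at 24 hours and than at 7 days under each of the 19 alternatives, and no called difference turned its sign. The median over the 10 ran from -2.50 to -2.30 against 24 hours and from -2.21 to -2.11 against 7 days when 1 array was left out, and from -0.24 to -0.04 for 7 days against 24 hours. The first-week calls are the ones that depend on the setting. Leaving out 1 array gave 0 to 2 of the 10 genes lower at 7 days than at 24 hours, 547 to 1156 genes lower and 593 to 1160 higher over all genes, and 2 to 12 lower and 0 to 2 higher among the 96 related genes. It gave 4 to 8 related genes higher at 10 weeks than at 24 hours, and 3162 to 3975 over all genes. With all features tested, 0 of the 10 and 5 related genes were lower at 7 days, against 898 of 35556 features. With only the 6 arrays compared 2 related genes were higher at 7 days, against 1112 of 19938 genes. Without 7-day replicates 2 and 3, where the lone 7-day array is assumed to vary like the other ages, 0 of the 10 genes were lower at 7 days, with 251 genes lower and 265 higher over all and 0 related genes lower and 0 higher. In the same fit 10 weeks against 7 days gave 2291 genes lower and 1865 higher, with 3 related genes higher. The later step less the first-week step then gave 665 genes below 0 and 545 above, 19 related genes below and 1 above, and a median of -1.91 over the 10. With 1 array left at 7 days fewer residual degrees of freedom remain. Centring gave 5247 genes higher at 10 weeks than at 7 days. Ttk, not called in the first week, was at -0.01 there with centring. The fit with the replicate block, whose numbers only name the arrays, gave 819 genes lower and 915 higher at 7 days against 24 hours, 2 of the 10 genes lower, and changed no call of the 10. How far dim 10-week signals understate a fall was not tested.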

Other observations

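Among the 96 related genes, those higher at 10 weeks than at 24 hours were Pttg1, Nek7, Nek9, Nedd1, Haus1, Anapc13 and Anapc16. Nek9 was higher at 10 weeks than at 7 days by 0.73 ± 0.06 (SE; limma, adjusted p = 3.76e-06) and lower at 7 days than at 24 hours (-0.27 ± 0.06, adjusted p = 0.0148). Anapc13 and Anapc16 were higher at 10 weeks than at 7 days by 0.29 and 0.33. Aurkb, the Aurora kinase of the chromosomal passenger complex, differed from 24 hours by -1.67 ± 0.14 at 10 weeks (adjusted p = 4.77e-06) and by 0.07 ± 0.14 at 7 days (adjusted p = 0.872). Aurkb and Pttg1 were singled out here after their values were seen.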
